A study of Danio rerio with 50 samples.

Results

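Adult male zebrafish, a freshwater fish in which males normally make little yolk protein, were exposed to 50 µg/L estradiol for 96 h, and their liver RNA was compared with that of males exposed to 5 µg/L for the same time. The comparison rests on 11 of the 50 arrays of the series, 7 at 50 µg/L and 4 at 5 µg/L, chosen by their titles. It asks whether the response of the male liver had levelled off by 5 µg/L. Each array carried RNA of 1 male liver sample in the Cy5 dye and a common pool of untreated male and female liver RNA in the Cy3 dye, so every value is a log2 ratio of sample over pool. The labels give no strain, no age in weeks and no number of fish per sample. They call the arrays biological replicates without saying whether fish of a group shared a tank, so each p-value speaks of the spread among arrays alone. The descriptions of 6 of the 7 samples at 50 µg/L give 97 h instead of 96 h, and those of 5 µg/L count 6 replicates, of which 4 are used here. Arrays of 0.5 µg/L at 96 h (6), of 5 and 50 µg/L at 24 h (6 each) and of untreated males at 24 h (8) and 96 h (7) served as references. In the fit that compared the doses, the spread was pooled over all 35 treated arrays, which include 6 of 0.5 µg/L at 24 h.

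In egg-laying females, estradiol from the ovary enters hepatocytes, binds estrogen receptors and switches on genes of vitellogenin, the yolk precursor that the liver secretes into the blood for the growing oocytes. Males carry the same genes and receptors and make vitellogenin when exposed to estrogen. The switch is accompanied by growth of the endoplasmic reticulum and by lower output of other secreted liver proteins, so a liver near its maximal response can be read on both its induced and its lowered genes.

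Markers of liver were read on these arrays, and so were markers of other tissues. All 18 measured hepatocyte markers lay above background in Cy5 on at least 2 of the 4 arrays at 5 µg/L and at least 4 of the 7 at 50 µg/L, and the Cy5 spot of fabp10a, the liver fatty acid binding protein, was brighter than 93.1% to 99.7% of spots. By the same rule 16 of 16 exocrine pancreas markers passed at 5 µg/L, and 15 of 16 at 50 µg/L. The Cy5 spot of prss1, one of these markers, was brighter than 95.7% to 99.5% of spots. So these values do not show that the samples held liver alone. The share of Cy5 spots above background was 69.8% to 84.9% at 5 µg/L. At 50 µg/L it was 82.4% to 89.3% on 5 arrays, 57.0% on replicate 4 and 25.7% on replicate 3, which are called the low-signal arrays here. A difference of the mean share between the doses beyond the spread was not found (exact permutation test over 330 splits, two-sided, p = 0.788, adjusted over 3 measures 0.976). The same held for the share of Cy5 spots at the scanner ceiling, 0.327% ± 0.126 (SD, n = 4) at 5 µg/L and 0.263% ± 0.106 (SD, n = 7) at 50 µg/L (exact permutation p = 0.345). Across probes, replicates 3 and 4 at 5 µg/L correlated more closely with the mean of the 50 µg/L arrays (r of 0.936 and 0.894) than with the rest of their own group (0.910 and 0.832). Replicates 3 and 4 at 50 µg/L also stood closer to the other dose (0.866 and 0.884) than to their own (0.848 and 0.862). These correlations are across probes, which are not independent replicates. For the arrays at 5 µg/L they are also not on a par. The mean of the other dose held 7 arrays, and that of their own group only the other arrays of 4.

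No gene passed the test between 50 and 5 µg/L at 96 h. In limma's test, 0 of 22776 probes (percent called 0) reached an adjusted p under 0.05, and every adjusted p was 1. An unadjusted p under 0.05 was reached by 938 probes (4.12%), of which 479 measured higher and 459 lower at 50 µg/L. That count was 490 without replicate 2 at 5 µg/L, 1809 without replicate 4 at 5 µg/L and 1553 without both low-signal arrays. Over the same 96 h, the step from 0.5 to 5 µg/L called 514 probes (2.26%), 283 higher and 231 lower at 5 µg/L. The median size of the differences between 50 and 5 µg/L was 0.157 log2 units, beside 0.183 for the step from 0.5 to 5 µg/L. That median, taken over all probes, hardly tells the steps apart. Their tails differed more: 93 probes measured over 1 log2 unit between 50 and 5 µg/L, against 596 for the step from 0.5 to 5 µg/L, which shares the 5 µg/L arrays. The 95% interval of the difference lay within 1 log2 unit of 0, a 2-fold change, for 19972 probes (87.7%), which leaves 12.3% for which these arrays could not bound the step at 2-fold. Among probes that responded strongly to estradiol at 24 h that share was smaller, as given below. In simulated data, differences of 0.5, 1 and 2 log2 units between the doses were called for 4.48%, 58.2% and 97.0% of the changed probes. So even there, steps of under 2-fold were mostly not detectable with 4 and 7 arrays. The simulated noise was independent, with 1 spread per probe pooled over the 35 treated arrays. It held no low-signal array and no deviation shared between probes, so the shares for the real arrays can be lower.

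**Figure D1:**
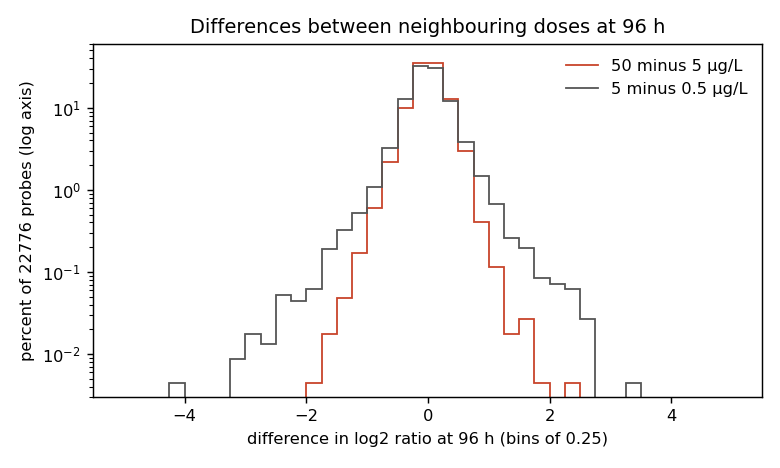
The percent of 22776 probes (log axis) is plotted by the difference in log2 ratio in bins of 0.25, for 50 minus 5 µg/L (red) and 5 minus 0.5 µg/L (grey) at 96 h; bins with no probe end at the axis. The red outline reaches from -1.76 to 2.38 and the grey one from -4.12 to 3.32.

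The vitellogenin vtg3 sat at or near the top of what the scanner could read at both doses. All 15 probes of vtg3 had their Cy5 spot at the ceiling on all 4 arrays at 5 µg/L and on 4 to 7 of the 7 arrays at 50 µg/L, so no fold between the doses is given for them. Of the 105 vtg3 spots at 50 µg/L, 19 lay below the ceiling, 18 of them on the low-signal arrays, and they read as low as 29852 of 65535 scanner units. The vtg3 probe with the highest mean Cy3 brightness was read in the value table that the authors deposited. It stood 7.31 ± 0.30 (SE) above controls at 5 µg/L and 7.82 ± 0.26 above them at 50 µg/L on the log2 scale. Both values are bounded by the ceiling. In all, 24 probes were at the ceiling on all 11 arrays, 17 of them without a gene name. Of the unnamed ones, 16 stood from 8.67 to 10.3 above controls at 50 µg/L in the authors' values. No fold between the doses is given for these either.

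**Figure D2:**
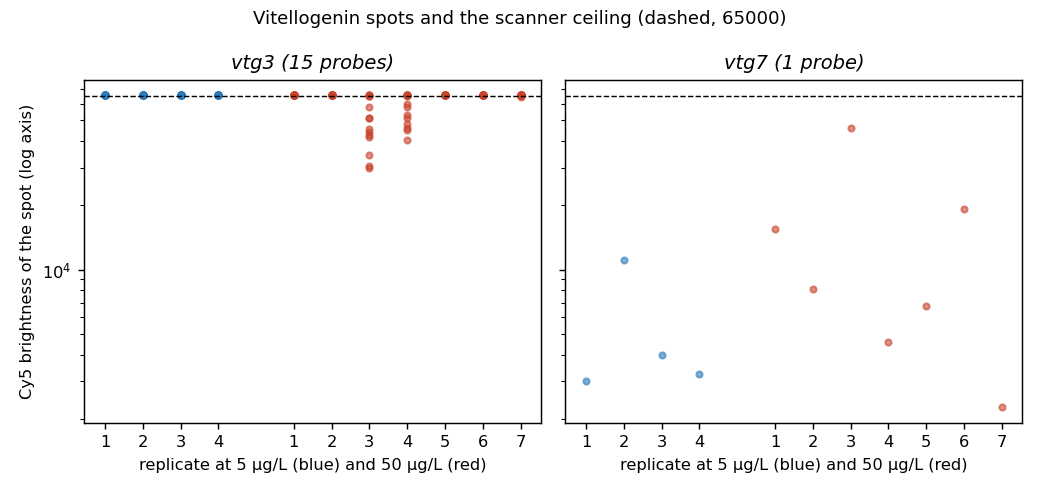
Cy5 brightness (log axis, scanner units) of each vtg3 and vtg7 spot is plotted by array, 4 arrays at 5 µg/L in blue and 7 at 50 µg/L in red, with the scanner ceiling dashed. Every vtg3 spot of the 5 µg/L arrays sits at 65535, and no vtg7 spot reaches the ceiling.

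The vtg7 probe, for another vitellogenin, stayed below the ceiling on all 11 arrays and could be compared. Its log2 ratios at 5 µg/L were 4.40, 4.95, 4.04 and 3.03, and at 50 µg/L they ran from 2.43 through a median of 4.30 to 5.22. The lowest and the 2 highest arrays were all at 50 µg/L, and the groups overlapped throughout. The difference was 0.00 ± 0.62 (SE), with a 95% interval from -1.24 to 1.25, so a change of somewhat over 2-fold either way was not excluded by this probe. The difference was -0.03 without the low-signal arrays. The probes of vtg2, vtg4, vtg5 and vtg6 measured differences of -0.10 ± 0.16, 0.27 ± 0.22, -0.05 ± 0.24 (with -0.10 ± 0.21 for the other vtg5 probe) and 0.20 ± 0.19. Of these, only vtg2 was called higher than controls in the authors' values, 0.68 ± 0.17 above them for 5 µg/L and 0.60 ± 0.15 for 50 µg/L. The probes of vtg4, vtg5 and vtg6 were not called against controls at either dose, and vtg6 lay above background on 1 of 4 and 3 of 7 arrays, so their values do not bear on whether an induction had levelled off.

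Of the estrogen receptors, esr1 was induced at both doses with no difference found between them, and the others were not induced. The transcript of esr1, the receptor that drives vitellogenin in fish liver and is itself induced by estrogen, stood at 4.22, 4.57, 3.77 and 2.12 at 5 µg/L. At 50 µg/L it ran from 2.58 through 3.40 to 4.82, inside the spread of the lower dose but for 1 array. The difference was -0.20 ± 0.38 (95% interval -0.98 to 0.58), and -0.63 without the low-signal arrays. In the authors' values esr1 stood 3.37 ± 0.37 above controls at 5 µg/L and 3.07 ± 0.31 above them at 50 µg/L. The other receptor genes, esr2a and esr2b, measured -0.38 ± 0.24 for esr2a and 0.12 ± 0.32 and 0.03 ± 0.28 for the 2 probes of esr2b. The esr2a probe measured -0.56 without the low-signal arrays (unadjusted p = 0.0268). Against controls, in the authors' values, esr2a (-0.76 ± 0.21, limma adjusted p = 0.0063) and 1 probe of esr2b (-0.74 ± 0.24, adjusted p = 0.0251) were lower at 50 µg/L. At 5 µg/L neither was called, with -0.33 ± 0.24 for esr2a (limma adjusted p = 0.457) and -0.69 ± 0.28 for this esr2b probe (0.104). The esr2b probe thus stood nearly as low at 5 as at 50 µg/L.

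Genes that led the induction were then taken from the 24 h arrays, which share no array with the comparison at 96 h. They were the 10 named genes with the largest rise, and the 10 with the largest fall, of 50 µg/L against controls. Read from 1 probe per gene in the authors' values, these ran from 3.15 to 7.29 and from -4.63 to -3.20 log2 units. The 10 induced genes include vtg3, vtg7 and esr1. Of the 10, 8 measured higher and 2 lower at 50 than at 5 µg/L at 96 h. The 95% interval lay within 2-fold for 5 of them: vtg3, esr1 and, described below, nots, rtn1 and slc43a1a. The vtg3 probe is counted as higher and as bounded, but its Cy5 spot was at the ceiling on 4 of 4 and 7 of 7 arrays. Its difference therefore cannot show the direction or size of a change between the doses. The bounds of nots and rtn1 are limited too, since their spots reached the ceiling on some arrays. Nothepsin (nots), an aspartic protease of the female fish liver, gave 5.44, 5.19, 5.28 and 6.02 at 5 µg/L. At 50 µg/L it ran from 4.32 through 5.77 to 6.18, a difference of 0.12 ± 0.34. The difference was 0.26 without the low-signal arrays, and the nots spot was at the ceiling on 3 of 4 and 4 of 7 arrays, which limits what a further rise could show. For rtn1, a reticulon of the endoplasmic reticulum membrane, the arrays gave 4.92, 3.96, 4.41 and 4.26 at 5 µg/L. At 50 µg/L rtn1 ran from 3.11 through 4.59 to 5.03, a difference of 0.10 ± 0.40 (0.35 without the low-signal arrays), although the step from 0.5 to 5 µg/L had raised it by 2.54 ± 0.42 (limma adjusted p = 0.000204). The rtn1 spot was at the ceiling on 1 of 4 and 2 of 7 arrays, which limits a further rise there too. The transporter of large neutral amino acids slc43a1a measured 2.3 ± 0.30 over the lower step (adjusted p = 5.03e-06) and 0.32 ± 0.29 over the upper one, with 5 of 7 arrays at 50 µg/L above every array at 5 µg/L. Its upper step was 0.57 without the low-signal arrays (unadjusted p = 0.0501). The transcription factor pax9 measured -0.57 ± 0.47.

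The largest upward differences among the induced genes belonged to lipid and folding genes. Apolipoprotein E (apoea), a lipid carrier, gave 0.33, -3.13, -1.79 and -0.70 at 5 µg/L. At 50 µg/L apoea ran from -1.66 through 0.72 to 2.17, with 5 of the 7 arrays above every array at 5 µg/L. The difference was 1.80 ± 0.88, with an unadjusted p of 0.0466 and an adjusted p of 1 in limma. The fatty acid binding protein fabp1b.1 measured 1.00 ± 0.78, its 4 arrays at 5 µg/L spread from -0.65 to 3.92. The prolyl isomerase fkbp11, which acts on proteins folding in the endoplasmic reticulum, measured 0.80 ± 0.38 (unadjusted p = 0.0415 in limma, and 0.0535 without the low-signal arrays).

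The lowered genes leaned further down at 50 µg/L. All 10 of the genes that fell most at 24 h measured lower at 50 than at 5 µg/L at 96 h, from -0.07 for a probe of c3a.2 to -1.44 for serpina7, and the 95% interval lay within 2-fold for 1 of them, c3a.2. None passed the adjusted test, and 3 had an unadjusted p under 0.05. The thyroxine-binding serpin serpina7 gave 0.47, 1.41, 0.22 and -0.19 at 5 µg/L. At 50 µg/L serpina7 ran from -1.88 through -0.82 to -0.13, with 5 of 7 arrays below every array at 5 µg/L. Its difference was -1.44 ± 0.42 (95% interval -2.29 to -0.58, unadjusted p = 0.0016), and -1.57 without the low-signal arrays. The serpina7 spot lay above background in Cy5 on 3 of 4 arrays at 5 µg/L and 5 of 7 at 50 µg/L, which limits how well the size is known. The mitochondrial carrier slc25a48 gave 1.1, 1.46, 0.87 and 0.55 at 5 µg/L. At 50 µg/L slc25a48 ran from -1.39 through -0.52 to 0.99, with 6 of 7 arrays below the lower dose and a difference of -1.37 ± 0.43 (unadjusted p = 0.00305). The xenobiotic-metabolising cytochrome cyp1a gave 0.37, 0.48, -1.03 and -0.78 at 5 µg/L. At 50 µg/L cyp1a ran from -1.81 through -1.18 to -0.52, a difference of -0.83 ± 0.26 (unadjusted p = 0.00295). For cyp1a, replicates 1 and 2 at 5 µg/L lay above every array at 50 µg/L, and replicates 3 and 4 lay among them.

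**Figure D3:**
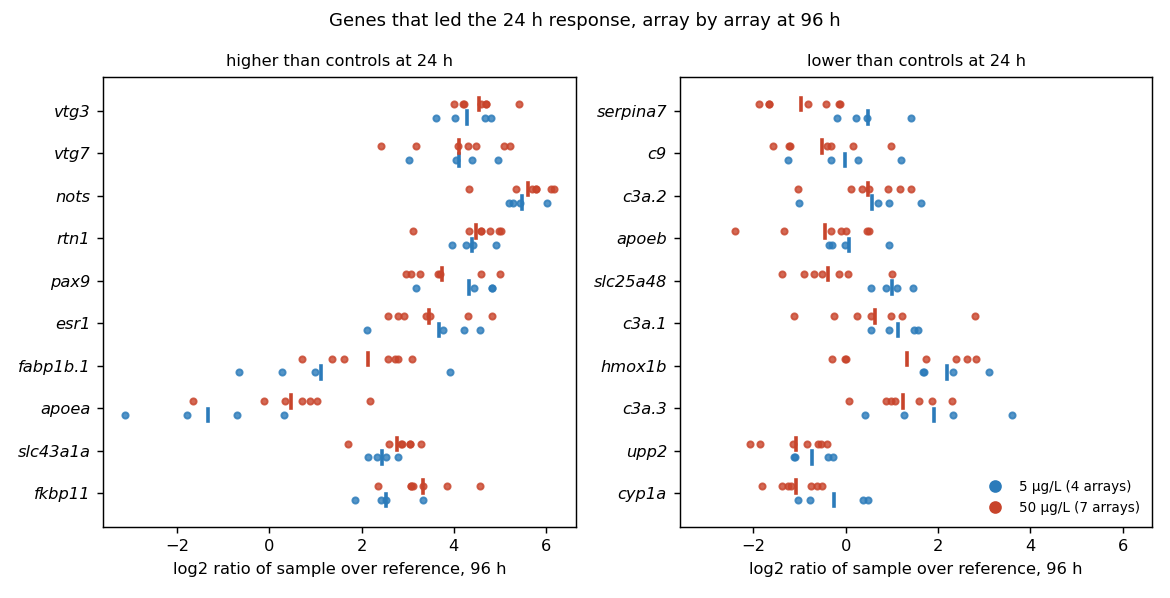
Log2 ratios at 96 h are plotted for the 10 named genes with the largest rise (left) and the 10 with the largest fall (right) at 24 h, 1 point per array, with bars at the group means. In both panels the 4 arrays at 5 µg/L (blue) and the 7 at 50 µg/L (red) overlap for every gene. On the left 8 means at 50 µg/L lie to the right of those at 5 µg/L and 2 to the left. On the right all 10 means at 50 µg/L lie to the left of those at 5 µg/L.

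The complement genes among the lowered ones, which encode plasma proteins of innate defence, measured -0.49 ± 0.40 for c9, a pore-forming component, -0.50 ± 0.41 for c3a.1 and -0.65 ± 0.46 for c3a.3, both copies of complement C3. Without the low-signal arrays they measured -0.82 for c9, -0.92 for c3a.1 and -0.99 for c3a.3, with unadjusted p of 0.0473, 0.0139 and 0.047. Apolipoprotein E copy apoeb measured -0.53 ± 0.48, the heme oxygenase hmox1b -0.87 ± 0.55 and the uridine phosphorylase upp2 -0.35 ± 0.38, and without the low-signal arrays apoeb measured -0.33 and upp2 -0.58. Each of these 6 overlapped between the doses.

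The whole response was then divided in the same way. Of the 2820 probes called at 24 h between 50 µg/L and controls (12.8% of 22046), 1564 were higher and 1256 lower than controls. At 96 h the 1564 higher ones had a median difference of 0.01 between 50 and 5 µg/L, 800 measuring higher and 764 lower, and 5.63% of them had an unadjusted p under 0.05, beside 4.12% of all probes. The 1256 lower ones had a median of -0.15, with 346 measuring higher and 910 lower at 50 µg/L, and 8.92% at an unadjusted p under 0.05. Among the 526 lowered by over 1 log2 unit at 24 h, the median was -0.28, 410 measured lower, and 16.5% had an unadjusted p under 0.05. The corresponding 457 probes raised by over 1 log2 unit had a median of -0.01. Without the low-signal arrays the medians were -0.35 and -0.09, and in the authors' values -0.25 and -0.03. The spread behind the calls at 24 h was pooled over the arrays of 96 h too. The shares at an unadjusted p under 0.05 are thus not on a par with that of all probes.

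On the individual arrays, the mean of the 526 lowered probes in the authors' values ran from 1.35 to 1.95 in the 7 controls of 96 h and from 0.77 to 1.5 at 0.5 µg/L. It ran from 0.27 to 0.60 at 5 µg/L and from -0.09 to 0.49 at 50 µg/L. The doses of 5 and 50 µg/L overlapped only through the low-signal arrays, since the other 5 arrays at 50 µg/L ended at 0.22. The mean of the 457 raised probes ran from -0.50 to -0.32 in controls, from 0.68 to 1.13 at 0.5 µg/L, from 1.22 to 1.78 at 5 µg/L and from 1.38 to 1.76 at 50 µg/L. With all arrays the range of 50 µg/L lay inside that of 5 µg/L. Without the low-signal arrays it ended at 1.59, below 3 of the 4 arrays at 5 µg/L, and in the refitted values, where it ended at 1.66, below 2 of the 4. So without those arrays both sets of probes had a lower median at 50 µg/L, the raised ones with overlap and the lowered ones with none.

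**Figure D4:**
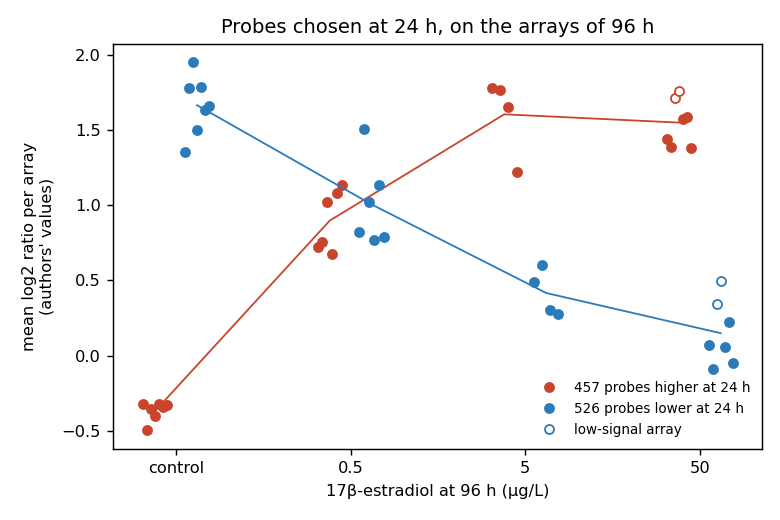
Mean log2 ratio per array in the authors' values is plotted against the dose at 96 h for probes chosen at 24 h, 457 higher (red) and 526 lower (blue) than controls by over 1 log2 unit; points are arrays, lines join group means and open points are the low-signal arrays at 50 µg/L. Among the 5 filled points at 50 µg/L, the red ones end at 1.59, below 3 of the 4 red points at 5 µg/L, and the blue ones end at 0.22, below all 4 blue points.

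Probes that already separated the doses at 24 h were followed to 96 h. At 24 h, limma called 63 probes (0.277%) between 50 and 5 µg/L, 26 higher and 37 lower at 50 µg/L. All 37 of the lower ones also measured lower at 96 h, with a median of -0.60 and 19 at an unadjusted p under 0.05 (51.4%, beside 4.12% of all probes). Both times share 1 spread per probe in the fit, so a call at 24 h also favours probes with a small spread. The shares at an unadjusted p under 0.05 are therefore not on a par with that of all probes. Of the 26 higher ones, 19 measured higher and 7 lower at 96 h, with a median of 0.13 and 3 at an unadjusted p under 0.05. Arrays with under 60% of Cy5 spots above background occurred only at 50 µg/L, also at 24 h, and without those 5 arrays 11 and 10 probes were called at 24 h in place of 26 and 37. Those 10 lower probes were all among the 37, and each measured lower at 96 h with an unadjusted p under 0.05 and a median of -1.03. The step itself did not differ between 96 and 24 h past the threshold for any probe: limma called 0 of 22776 (percent called 0), with the smallest adjusted p at 0.639 and 861 probes at an unadjusted p under 0.05.

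Of the 37 probes, 25 have a name and stand for 22 genes; those below are named for their 24 h call, after their values were seen. The protease inhibitor serpina1 measured -1.67 ± 0.31 at 24 h (limma adjusted p = 0.00667) and -1.1 ± 0.34 at 96 h, and the clotting inhibitor antithrombin (serpinc1) -1.1 ± 0.23 at 24 h and -0.72 ± 0.25 at 96 h. The serpina1 spot was at the ceiling on 5 of 6 arrays at 5 µg/L and 24 h, on 2 of 4 at 5 µg/L and 96 h and on none at 50 µg/L, so its differences could read no larger than the ceiling allowed. The lipid carrier apom measured -0.69 ± 0.26 at 96 h, the selenium carrier selenop2 -0.62 ± 0.28 and the complement regulator cfhl2 -0.91 ± 0.42. The 2 probes of a2m2d, an alpha-2-macroglobulin, measured -0.61 ± 0.26 and -0.63 ± 0.28. Fibrinogen gamma chain (fgg) and complement factor B (cfb), with -0.40 ± 0.26 and -0.39 ± 0.27, measured smaller differences at 96 h, and fgg was at the ceiling on 5 of 6 arrays at 5 µg/L and 24 h and on 1 of 4 at 96 h. The ribosomal protein rps6 measured -0.20 ± 0.26 at 96 h, the glycogen phosphorylase pygl -0.12 ± 0.23, the transcription factor cebpd -0.47 ± 0.25 and zfp36l1b, which binds AU-rich mRNAs, -0.26 ± 0.23. In the authors' values this rps6 probe stood at -3.16 and -3.34 against controls of 96 h for 5 and 50 µg/L. Its family did not share that direction: of 68 cytosolic ribosomal proteins, 22 and 53 were called higher than controls at these doses, and 1 lower at each. The uncoupling protein ucp1 measured -1.17 ± 0.37 and a probe of mpx, the neutrophil myeloperoxidase, -1.08 ± 0.29 at 96 h. Another probe stands for mpx among 24 macrophage and neutrophil markers. The lowest difference of those markers was -0.88, and 0 were called lower than controls at 5 or 50 µg/L and 96 h. On the other side, psat1, an enzyme of serine synthesis, measured 1.37 ± 0.22 at 24 h (adjusted p = 0.000872) and 0.69 ± 0.24 at 96 h, and mat2aa, which makes S-adenosylmethionine, 1.74 ± 0.28 at 24 h and 0.43 ± 0.30 at 96 h. The sterol synthesis gene hmgcs1 measured 1.55 ± 0.35 at 24 h and -0.53 ± 0.38 at 96 h.

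The upper dose step differed from the lower one for 6 of 22776 probes (0.0263%), 3 in each direction, of which 4 have a gene name. Both steps share the 5 µg/L arrays, so their values are given side by side. The threonyl-tRNA synthetase tars1 measured 1.81 ± 0.19 from 0.5 to 5 µg/L and -0.03 ± 0.18 from 5 to 50 µg/L, a difference of steps of -1.84 ± 0.33 (limma adjusted p = 0.0176). Its arrays were tight, at 1.73, 1.69, 2.22 and 1.79 for 5 µg/L and 1.63 through 1.82 to 2.12 for 50 µg/L. The sterol reductase tm7sf2 measured 1.80 ± 0.30 and then -0.94 ± 0.29 (difference of steps -2.74 ± 0.53, adjusted p = 0.0407). The matrix protein tgfbi measured -2.83 ± 0.31 and then 0.37 ± 0.30 (difference 3.20 ± 0.55, adjusted p = 0.0176), and a second probe of the complement gene c3a.2 -3.19 ± 0.39 and then 0.29 ± 0.38 (difference 3.48 ± 0.69, adjusted p = 0.0498). The other c3a.2 probe measured a difference of steps of 1.96 ± 0.77 and did not pass (adjusted p = 0.585). Without the low-signal arrays at 96 h, 4 of the 6 passed, with tm7sf2 (adjusted p = 0.0734) and c3a.2 (0.0806) lost. Without those of 24 h as well, 2 of the 6 passed, tgfbi (adjusted p = 0.0489) and a probe with no gene name, and tars1 reached 0.0541. For tars1, tgfbi and the called probe of c3a.2, the step of the lower doses passed the test, while that of the upper doses measured from -0.03 to 0.37. The tgfbi spot lay above background in Cy5 on only 2 of 4 arrays at 5 µg/L, and on 6 arrays at 50 µg/L. The called c3a.2 spot did so on 3 of 4 arrays at 5 µg/L, and on 5 arrays at 50 µg/L. For these 2 lowered genes, such dim spots limit how far a further fall could read.

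Lists of genes by function are described by their members' differences beside those of all 9264 named genes, whose median was 0.02 and of which 395 (4.26%) had an unadjusted p under 0.05. No member of any list passed the adjusted test between 50 and 5 µg/L. The 20 aminoacyl-tRNA synthetases, which charge tRNAs with amino acids, had a median of 0.03, with 0 at an unadjusted p under 0.05 and 18 of 20 intervals within 2-fold. In the authors' values, where the calls against controls made up 3.25%, 12.6% and 18% of 22046 probes for 0.5, 5 and 50 µg/L, 17 of these 20 were called higher than controls at 5 and at 50 µg/L, with medians of 1.23 at 5 µg/L and 1.2 at 50 µg/L. The proteasome, which degrades proteins, had a median of 0.10 over 52 genes, with 51 intervals within 2-fold. The translation factors had a median of 0.00 over 74 genes, with 71 intervals within 2-fold.

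Most of the listed genes of the endoplasmic reticulum and of ribosomes measured higher at 50 µg/L, and so did those of some other lists. Medians were, for example, 0.28 for DNA replication and mitosis and 0.21 for skeletal muscle markers, while endothelial markers had -0.09. Of 89 genes of translocation, folding and secretion, 66 measured higher and 23 lower, with a median of 0.14 (0.08 without the low-signal arrays) and 6 at an unadjusted p under 0.05, all higher. Among them were ssr3, a subunit of the translocon-associated complex, with 0.64 ± 0.28, and serp1, a stress-associated membrane protein of the reticulum, with 0.70 ± 0.28. Another was pdia2, with 0.69, which was also listed as an exocrine pancreas marker. In the limma fit without the low-signal arrays, 3 of the 89 had an unadjusted p under 0.05 (3.37%, beside 7.45% of all named genes), and serp1 measured 0.55 (unadjusted p = 0.0743). Against controls, in the authors' values, 42 of 88 were called higher at 5 µg/L and 58 at 50 µg/L, with medians of 0.65 and 0.70. Over all probes, too, calls against controls went from 12.6% with 4 arrays at 5 µg/L to 18% with 7 at 50 µg/L. Such counts at the 2 doses are therefore not on a par. Of 68 cytosolic ribosomal proteins, 60 measured higher at 50 µg/L, with a median of 0.23, and 0.52 without the low-signal arrays. An unadjusted p under 0.05 in limma was reached by 5 of the 68, all higher, and by 20 (29.4%) without the low-signal arrays. The latter share was 7.45% for all named genes. Against controls, in the authors' values, 22 were called higher at 5 µg/L and 53 at 50 µg/L, with medians of 0.65 and 0.96. These counts, too, rest on 4 and 7 arrays. Of these 68, 40 had a Cy5 spot at the ceiling on at least 1 of the 11 arrays, and rpl3 and rpl36a were at the ceiling on all 11.

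The lists of cholesterol synthesis and of complement and coagulation had the lowest medians. Of 18 genes of cholesterol synthesis, 17 measured lower at 50 than at 5 µg/L, with a median of -0.31 and 4 at an unadjusted p under 0.05: tm7sf2, nsdhl (-0.68 ± 0.28), sc5d (-0.60 ± 0.25), and insig1 (-0.54 ± 0.26), a sensor that restrains the pathway. In limma, leaving out the low-signal arrays left 2 of the 18 at an unadjusted p under 0.05, with sc5d at -0.45 (unadjusted p = 0.0955) and insig1 at -0.32 (unadjusted p = 0.228). From 0.5 to 5 µg/L, 13 of the 18 had been called higher, with a median of 1.65, on the same 5 µg/L arrays. For tm7sf2 the arrays gave 2.52, 3.71, 3.27 and 3.32 at 5 µg/L. At 50 µg/L tm7sf2 ran from 1.66 through 2.28 to 2.81, with 5 of 7 arrays below every array at 5 µg/L.

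Of 42 genes of complement and coagulation, 29 measured lower and 13 higher at 50 µg/L, with a median of -0.37 (-0.44 without the low-signal arrays). Among them 4 were lower and 1 higher at an unadjusted p under 0.05, with serpinc1, plasminogen (plg, -0.67 ± 0.28) and clotting factor f7 (-0.78 ± 0.36) lower and the complement gene c1qc (0.58 ± 0.24) higher. Without the low-signal arrays 12 of the 42 had an unadjusted p under 0.05 (28.6%, beside 6.82% of all probes), and c1qc was at 0.0524. Against controls, 26 of 41 were called lower at 5 µg/L and 31 at 50 µg/L, with medians of -1.22 and -1.65. The 2 counts rest on 4 and 7 arrays and are not on a par. Of 20 acute phase and plasma transport genes, 4 measured lower at an unadjusted p under 0.05 and 0 higher, among them the iron hormone hepcidin (hamp, -0.93 ± 0.38), and the list's median was -0.10. In glucose metabolism, pck1, which controls gluconeogenesis, measured -1.76 ± 0.57 (unadjusted p = 0.00425), the lowest difference of all named genes. Its list did not share that direction: of 42 genes of glycolysis, gluconeogenesis and glycogen, 29 measured higher and 13 lower, with a median of 0.13.

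**Figure D5:**
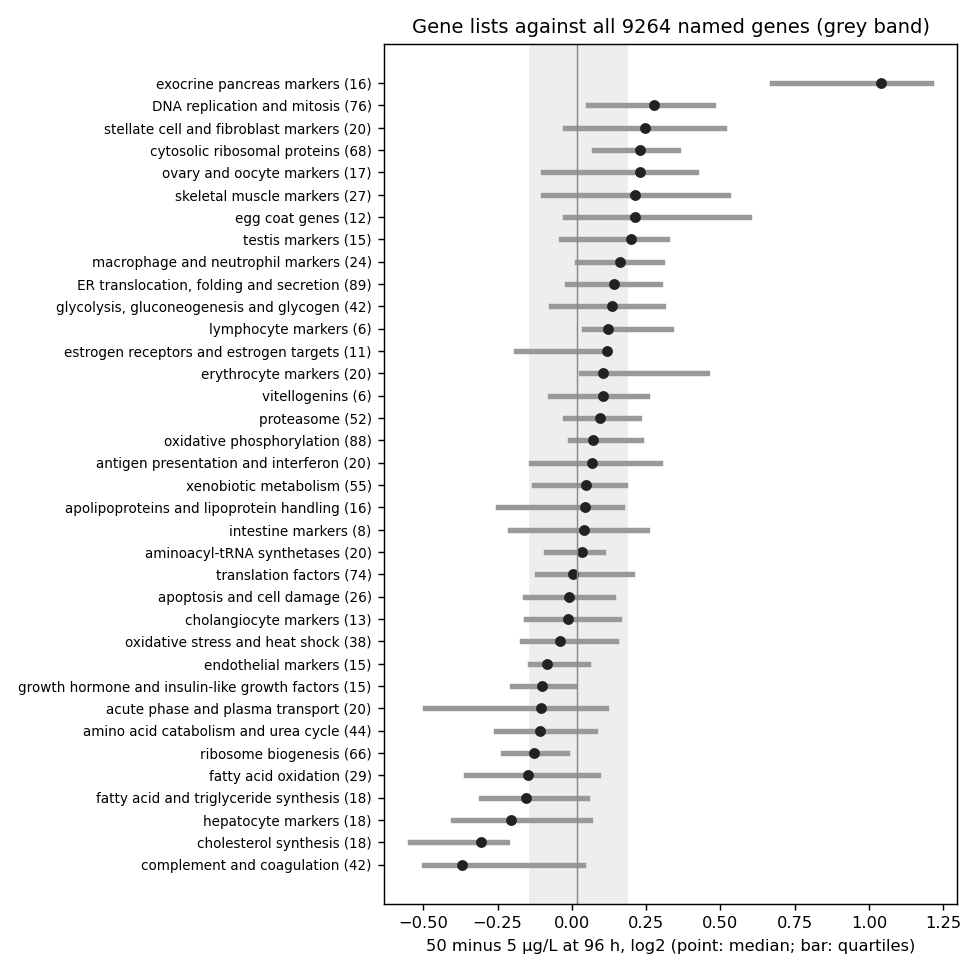
The median (points) and quartiles (bars) of the difference 50 minus 5 µg/L at 96 h, in log2 units, are plotted for 36 gene lists with the number of genes measured, over the median and quartiles of 9264 named genes (grey line and band). Complement and coagulation (-0.37) and cholesterol synthesis (-0.31) lie lowest, and exocrine pancreas markers (1.04) lie farthest from the rest.

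Markers of the exocrine pancreas, a tissue that lies against the fish liver, measured higher at 50 µg/L and very low on 1 array at 5 µg/L. Of the 16 measured, 14 were higher at 50 µg/L and 11 had an unadjusted p under 0.05, with a median of 1.04. Their mean log2 ratio was -0.44, -2.59, -0.86 and -0.39 on the 4 arrays at 5 µg/L and ran from -0.62 through -0.15 to -0.04 at 50 µg/L. Replicate 2 at 5 µg/L stood far below the rest, and the median was 0.38 without it. The step from 0.5 to 5 µg/L, on the same 5 µg/L arrays with replicate 2 included, had a median of -1.14 for these markers. Against controls, in the authors' values, 15 of the markers were read. The dose of 0.5 µg/L had a median of 0.941, close to the 0.875 of 50 µg/L, while that of 5 µg/L was -0.275. So the markers did not rise steadily with dose, and the 5 µg/L group stood apart. All 16 lay above background in Cy5 on at least 2 arrays at 5 µg/L, with none absent from every array. Of 20 erythrocyte markers, 18 measured higher at 50 µg/L and 5 had an unadjusted p under 0.05, with a median of only 0.105. Among the 5 were the beta globins hbba1 (1.17 ± 0.47, the largest of the list) and hbba2 (1.05 ± 0.36). Of the 20, 19 lay above background on at least 2 arrays at 5 µg/L and 18 on at least 4 at 50 µg/L. Their mean ran from -1.28 to -0.82 on the arrays at 5 µg/L and from -0.85 to -0.63 at 50 µg/L. The part of other tissues in the differences of liver genes was not tested. In whole-tissue RNA, fewer cells of a type and less RNA per cell cannot be told apart.

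The 5 named genes of smallest p in each direction are given although none passed the adjusted test. Upward, the dehydrogenase dhrs11b.2 gave 2.14, 0.95, 1.63 and 2.06 at 5 µg/L. At 50 µg/L dhrs11b.2 ran from 2.34 through 2.63 to 3.55, above every array at 5 µg/L, a difference of 1.06 ± 0.27 (unadjusted p = 0.00038). The groups did not overlap for 75 of 22776 probes in all (0.329%). The other 4 were the microtubule regulator stmn4 (0.75 ± 0.20), the astacin metalloprotease c6ast3 (1.74 ± 0.48) and the chymotrypsins ctrb.3 (1.5 ± 0.42) and ctrl (1.59 ± 0.47). The chymotrypsins are digestive enzymes of the pancreas, and c6ast3, ctrb.3 and ctrl all read lowest on replicate 2 at 5 µg/L, at -3.60, -3.21 and -3.08. Downward, the 5 were pym1, which acts on the exon junction complex (-0.84 ± 0.21), the sulfotransferase chst1 (-0.78 ± 0.22), serpina7, the mitochondrial pyrophosphatase ppa2 (-0.79 ± 0.23) and the transcription factor egr2a (-1.45 ± 0.43). The stmn4 and ppa2 spots lay above background in Cy5 on only 2 of 4 arrays at 5 µg/L and 1 of 7 at 50 µg/L. The step from 0.5 to 5 µg/L shares the 5 µg/L arrays. Of all the genes of smallest p, only dhrs11b.2 (0.58 ± 0.28) and serpina7 (-1.37 ± 0.43) measured the same direction there. For example, the means at 0.5 and 50 µg/L were -0.06 and -0.09 for c6ast3, and 0.64 and 0.58 for pym1.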

How the data were processed

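Trizol-extracted liver RNA was labelled with Cy5 and the reference pool with Cy3, per the labels' protocols. In the deposited scanner files, spot and background brightness (intensity) and the percent of pixels above background are listed for each dye. The authors' value table holds log2 ratios of sample over reference; how it was normalized is not given in the sources used. Control arrays have only the authors' log2 ratios here.

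Of 23232 spots, 22776 could be read. Brightness was corrected by normexp (offset 50) and loess within arrays, and 6 group means were fitted to 35 treated arrays with limma 3.58.1 in R 4.3.3, with Benjamini-Hochberg adjustment over all probes (threshold 0.05). Printed differences are ± SE of the fit. Comparisons with controls used a fit of the authors' log2 ratios on all 50 arrays, centred on each array's median, over 22046 probes. No direct contrast of the doses used those controls. Spots with over 50% of pixels more than 2 SD brighter than background were taken as measured, and those from 65000 as at the ceiling. The depth of an array cannot be counted; the number of arrays limits precision. Lists count 1 probe per gene. Of the probes, 11724 have 1 gene symbol in the platform annotation, updated through a RefSeq table of GRCz12tu.

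Named genes were the up to 12 largest changes past the threshold or, with none, the 5 of smallest p per direction; vitellogenins and estrogen receptors; the 10 largest rises and falls at 24 h; up to 4 members of each list; and the called differences of steps. The comparison, members and lists were chosen with earlier results of these data known. Tested on simulated data in which 200 of 22776 probes differed, the fit called 114 at 50 against 5 µg/L and 96 h, 8 of them falsely and 0 in the wrong direction. Same-numbered arrays of the 2 doses did not deviate together (r of -0.335 to 0.0275), so the numbers were not used as pairs. No 2 arrays correlated above 0.919. Plots and tables used Python 3.11.15 with pandas 2.3.3, scipy 1.17.1 and matplotlib 3.10.9.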

Additional observations from a re-analysis of the deposited data

Results flagged for a closer look

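Among 122 groups of 4 or 7 arrays tested for an array standing apart from the rest, 5 were found (4.10%), where chance gives about 1 in 20. At 5 µg/L and 96 h, replicate 2 read -3.60 for the metalloprotease c6ast3, a gap of 0.949 of the group's range, and had 0.514% of its Cy5 spots at the ceiling, the most in its group. At 50 µg/L and 96 h, replicate 1 read -1.10 for ppa2. Replicate 4, a low-signal array, read 1.42 for esr2a, the highest of its group, and 3.11 for rtn1, the lowest of its group.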

How the results depend on the processing

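Without replicate 3 at 5 µg/L, 1 probe without a gene name was called lower at 50 µg/L (-1.24 ± 0.21, limma adjusted p = 0.0277; -0.95 with all arrays), so leaving out 1 array gave 0 to 1 lower and 0 higher probes. Under the other 25 of 26 alternatives no probe was called between 50 and 5 µg/L at 96 h. The unadjusted count ran from 490 to 1809 and the count of intervals within 2-fold from 16417 (72.1%; background offset 0) to 20360 (89.4%; no background correction). With array weights 1613 probes had an unadjusted p under 0.05. The fit with the replicate number as a block over the 17 treated arrays of 96 h called 0, with 689 at an unadjusted p under 0.05; the arrays share only a number, and the block changed no call. Chosen after seeing the data, the fit without the 5 low-signal arrays of both times called 11 higher and 10 lower probes at 24 h in place of 26 and 37, and 1 higher difference of steps in place of 3; the cause was not tested. Of 4801 values of named genes under alternatives, 4800 moved by less than 1 SD between arrays, and 1, asl with background offset 0 (0.94 in place of 0.56), by more. Normalization of brightness between arrays leaves ratios unchanged by its construction. A fit with scan or print batches was not run, since the file headers used here give none. The ceiling limits the 148 probes with a ceiling spot on at least 1 of the 11 arrays, 109 of them named and 41 among the 457 raised ones, and dim spots limit the low-signal arrays.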
